A study of Rattus norvegicus with 14 samples.

Results

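Matricellular and adhesive glycoproteins of the aortic wall were described in rats with renal failure. They were the 10 genes Postn, Tnc, Sparc, Thbs1, Thbs2, Spp1, Ccn2, Fn1, Comp and Tgfbi, chosen by gene symbol in the platform annotation. For 9 of them the annotation gave at least 1 probe set with that symbol alone, out of 14217 genes on the array with such a probe set. Thbs1 had none and was not analysed here. Where a gene had several probe sets, the one with the highest mean over all arrays stood for it. This concerned Sparc, with 2 probe sets, so that the 9 genes had 10 probe sets.

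Thoracic aortas of Sprague-Dawley rats were hybridised to 14 one-colour arrays, 1 array per sample. The 8 A-CRF samples came from rats whose chronic renal failure was induced with adenine, a purine whose product crystallises in kidney tubules. The 6 Control samples shared the strain and the tissue. The sources used here do not give age, dose or length of treatment, nor whether each sample was a separate animal, so the spread between samples may be partly technical. Values are log2 units of probe set signal, with the log base inferred from their range of 4.82 to 12.64. Signals of different probe sets are not on a common scale, so levels were tested only between arrays. A distance from the lowest or highest value in the table, or a mean above a bound, describes where a probe set lies in the range of the arrays and does not rank transcripts by abundance. Each of 10 smooth muscle markers averaged, in Control, more than 1 log2 unit over the lowest value in the table. One of them, the smooth muscle myosin heavy chain Myh11, had a mean of 11.58 ± 0.14 on A-CRF arrays (SD, n = 8) and 11.87 ± 0.12 on Control arrays (SD, n = 6). A-CRF 1, A-CRF 4 and Control 1 had a 3′ minus 5′ difference of the GAPDH control probe sets, a sign of shorter transcripts, of 1.58 to 1.90 log2 units. It was 0.37 to 0.55 elsewhere.

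Matricellular proteins are secreted into the extracellular matrix but act less as scaffold than as modulators: they bind collagen, growth factors and integrins, and change how cells adhere and migrate. Most are scarce in the quiet adult vessel and are made in development, injury and fibrosis. Fibronectin, encoded by Fn1, is the adhesive glycoprotein on which much of this matrix is assembled. In vascular disease osteopontin (Spp1) is also known as a mineral-binding protein of macrophages and smooth muscle cells.

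The promoter windows of 3 genes are shown, both members that passed and 1 that did not, from RefSeq on build GRCr8, each the 250 bases before the annotated start site, 5′ to 3′ on the strand of the gene. Postn and Sparc passed the comparison of A-CRF with Control and Ccn2 did not; the difference between these genes was not tested. Capitals mark matches, on either strand, to 6 motifs. Those searched were the TATA box as TATAAA, the motif of the AP-1 factors as TGANTCA, that of the TEAD factors as GGAATG, that of the SMAD factors as CAGAC, that of SP1 as GGGCGG, and the CArG box of serum response factor. No marked match overlaps another. The windows are chr2:140677811-140678060 on the plus strand for Postn, chr10:40038817-40039066 on the minus strand for Sparc and chr1:22624615-22624864 on the minus strand for Ccn2.
Postn: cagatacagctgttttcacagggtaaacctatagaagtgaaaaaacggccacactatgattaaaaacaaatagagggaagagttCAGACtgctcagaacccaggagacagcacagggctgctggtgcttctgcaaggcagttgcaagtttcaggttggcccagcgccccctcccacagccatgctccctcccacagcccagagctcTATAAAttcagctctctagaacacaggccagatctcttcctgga
Sparc: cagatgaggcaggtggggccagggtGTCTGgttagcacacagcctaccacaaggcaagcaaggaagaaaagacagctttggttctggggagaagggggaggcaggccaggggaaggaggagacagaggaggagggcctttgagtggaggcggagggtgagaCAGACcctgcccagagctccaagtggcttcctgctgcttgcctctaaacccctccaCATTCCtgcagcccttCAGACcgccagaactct
Ccn2: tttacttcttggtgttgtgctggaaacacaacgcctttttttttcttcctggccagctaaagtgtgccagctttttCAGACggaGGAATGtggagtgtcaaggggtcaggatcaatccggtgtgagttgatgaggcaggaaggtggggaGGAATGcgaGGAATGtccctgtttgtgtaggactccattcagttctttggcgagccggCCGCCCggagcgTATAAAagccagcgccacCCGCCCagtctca
The Ccn2 window held 3 TEAD motifs, starting 166, 101 and 92 bases before the start site, and a TATA box starting 31 bases before it. The Postn window had a TATA box starting 44 bases before the start site and no TEAD motif, and the Sparc window had 1 TEAD motif, ending 28 bases before the start site, and no TATA box. Of the 33469 windows of the same length in the table, 12.9% held the TATA box, 12.1% the TEAD motif, 42.9% the SMAD motif, 30.5% the SP1 motif, 6.34% the AP-1 motif and 1.5% the CArG box. Among the 7 members with a window, 4 held the TATA box, 2 the TEAD motif, 6 the SMAD motif, 3 the SP1 motif, and 0 the AP-1 motif or the CArG box. Fn1 and Thbs2 were not searched. The start site used was the boundary of the annotated gene in 57.8% of windows over all genes. Distances therefore hold for the start site used, and other start sites of a gene were not searched. These are matches of letters, tested neither as sites nor against the changes of the genes.

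Setting A-CRF against Control asks whether renal failure goes with other levels of these transcripts in the aorta. Postn and Sparc rose in A-CRF, by 1.88-fold and 1.43-fold. For Comp, Fn1, Spp1 and Thbs2 the A-CRF mean was 1.22-fold to 1.73-fold higher, without passing the threshold of an adjusted p of 0.05 over all probe sets. Tnc, Ccn2 and Tgfbi differed by less than the spread between arrays. Thus 2 of 9 members passed, both higher in A-CRF, where 2.99% of all 14217 genes passed, 1.93% being higher and 1.06% lower. Among genes with a mean above 10 log2 units, a bound chosen after the values were seen and one that 5 of the 9 members exceed, the share past the threshold was 12.3% and the share higher was 8.19%. At an unadjusted p under 0.05, 6 of the 9 members were higher, against 9.74% of all genes. The median log2 fold change was 0.49 over the 9 members and -0.0012 over all genes. For a bulk sample of tissue, more cells of a type and more RNA per cell cannot be told apart.

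**Figure D1:**
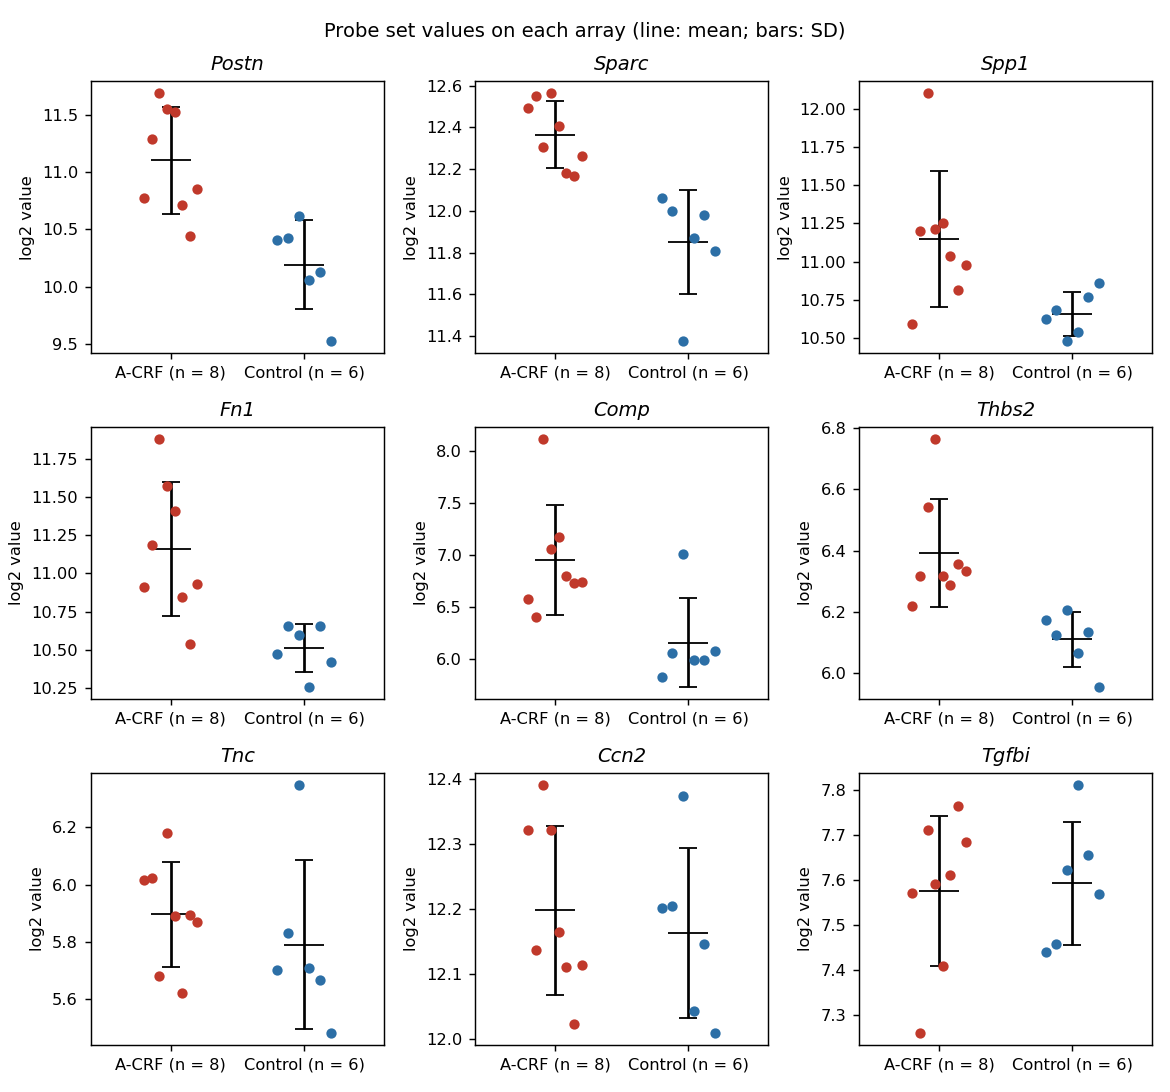
Log2 probe set value (vertical axis) of each of 9 genes on each A-CRF array (red, n = 8) and Control array (blue, n = 6), with the mean and SD in black; vertical axes differ between panels and do not start at 0. All A-CRF points of Sparc and Thbs2 lie above all Control points, and most A-CRF points of Tnc, Ccn2 and Tgfbi lie within the Control range.

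**Figure D2:**
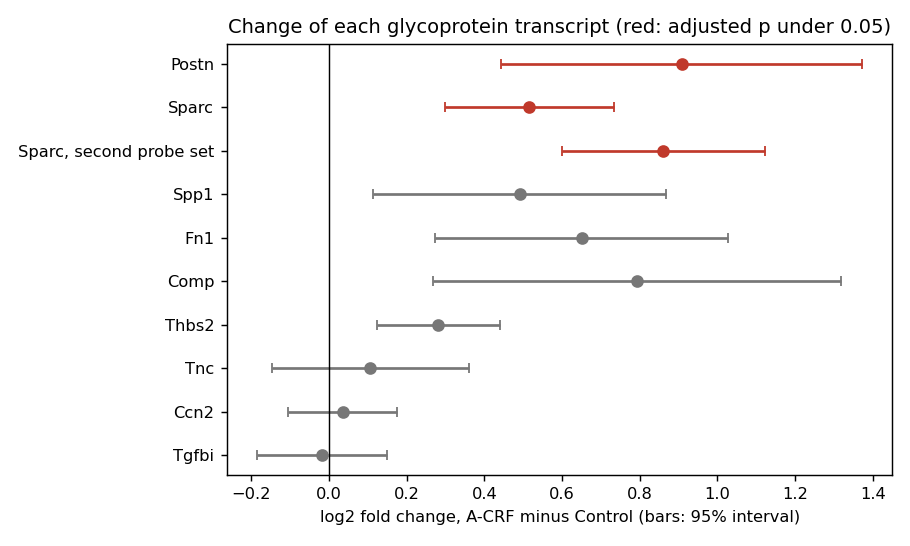
Log2 fold change of A-CRF minus Control (horizontal axis) for the 9 genes and the second Sparc probe set, with the 95% interval of the limma fit. Red marks an adjusted p under 0.05, reached by Postn and both probe sets of Sparc, and the intervals of Tnc, Ccn2 and Tgfbi include 0.

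Postn encodes periostin, a matricellular protein that binds collagen and integrins and takes part in collagen fibril assembly. Its values ran from 10.44 to 11.68 in A-CRF, with a median of 11.07, and from 9.53 to 10.61 in Control, with a median of 10.27. On 7 of 8 A-CRF arrays Postn was above every Control array, and A-CRF 7 lay within the Control range. The mean was 11.10 ± 0.46 on A-CRF arrays (SD, n = 8) and 10.19 ± 0.38 on Control arrays (SD, n = 6), a rise of 0.91 ± 0.22 log2 units (SE, limma, adjusted p = 0.047). The 95% interval of the change ran from 0.44 to 1.37. A-CRF 2, 3, 4 and 5 formed the upper part of the group, at 11.28 to 11.68, and A-CRF 1, 6, 7 and 8 the lower part, at 10.44 to 10.85. The call was close to the threshold: it held without A-CRF 1, A-CRF 6 or A-CRF 7 and was lost on leaving out any of the other 11 arrays (highest adjusted p = 0.10, without Control 4), with a change of 0.77 to 1.0 throughout. Without the 3 arrays of high GAPDH difference the change was 0.93 and the adjusted p was 0.070.

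Sparc encodes osteonectin, a collagen-binding glycoprotein that affects collagen deposition and cell spreading. Values were 12.17 to 12.56 in A-CRF, with a median of 12.35, and 11.38 to 12.06 in Control, with a median of 11.93. The groups did not overlap, a pattern found for 1.46% of all genes in this direction. The mean was 12.37 ± 0.16 on A-CRF arrays (SD, n = 8) and 11.85 ± 0.25 on Control arrays (SD, n = 6), a rise of 0.52 ± 0.10 log2 units (SE, limma, adjusted p = 0.020). An exact two-sided permutation test gave p = 3.3e-04, the smallest that these arrays allow. The A-CRF mean lay 0.27 log2 units below the highest value in the table, and whether the scale flattens there was not tested. The second probe set of Sparc, with lower values, ran from 11.07 to 11.61 in A-CRF and from 10.07 to 10.97 in Control, again without overlap. Its change was larger, at 0.86 ± 0.12 (SE, limma, adjusted p = 0.0049). Of the 9 members Sparc alone kept its call whichever of the 14 arrays was left out (change 0.42 to 0.56, highest adjusted p = 0.048, without Control 6).

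Fn1 encodes fibronectin, through which cells attach to the matrix by integrins. It had values of 10.54 to 11.88 in A-CRF, with a median of 11.06, and 10.26 to 10.66 in Control, with a median of 10.53. On 7 of 8 A-CRF arrays it was above every Control array, the exception again being A-CRF 7. The difference of 0.65 ± 0.18 log2 units (SE, limma, adjusted p = 0.074) did not pass. It passed without A-CRF 7 (adjusted p = 0.031), with array weights (0.030) and with dim probe sets left out (0.049). The SD was 0.44 in A-CRF and 0.16 in Control, 2.80 times as large.

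Spp1 encodes osteopontin, a secreted phosphoprotein that binds integrins, CD44 and mineral. Values ran from 10.59 to 12.10 in A-CRF, with a median of 11.12, and from 10.48 to 10.86 in Control, with a median of 10.65. On 6 of 8 A-CRF arrays Spp1 was above every Control array, whereas A-CRF 1 and A-CRF 7 lay within the Control range. A-CRF 3 stood far above the other arrays of its group, the next being A-CRF 5 at 11.25. The difference was 0.49 ± 0.18 log2 units (SE, limma, adjusted p = 0.18), and 0.36 without A-CRF 3 (adjusted p = 0.13). The SD was 0.44 in A-CRF and 0.14 in Control. Spp1 is also made by macrophages, and 8 of 15 macrophage markers rose in A-CRF and 0 fell, where 1.93% of all genes rose and 1.06% fell. Their list mean was 6.99 to 7.43 on A-CRF arrays and 6.70 to 6.80 on Control arrays. The macrophage list mean was highest on A-CRF 3, as were Spp1, Postn, Fn1, Comp and Ccn2 within A-CRF, and it was lowest in A-CRF on A-CRF 6, whereas Spp1 was lowest on A-CRF 1. The part of these cells in the Spp1 values was not tested.

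Comp and Thbs2 are thrombospondins. Comp encodes cartilage oligomeric matrix protein, the fifth thrombospondin, which binds collagens and is made by cartilage, tendon and smooth muscle cells. Its values were 6.40 to 8.11 in A-CRF, with a median of 6.76, and 5.83 to 7.01 in Control, with a median of 6.02. All 8 A-CRF arrays were above the Control median, but only A-CRF 3, A-CRF 4 and A-CRF 5 were above Control 3, the highest Control array. The other Control arrays, at 5.83 to 6.07, lay below every A-CRF array. The Control mean of Comp was 1.33 log2 units above the lowest value in the table. The difference was 0.79 ± 0.25 log2 units (SE, limma, adjusted p = 0.12). It was 0.96 without Control 3 (adjusted p = 0.056) and 0.63 without A-CRF 3 (adjusted p = 0.12). None of the 8 measured chondrocyte and osteoblast markers passed by limma, 1 had an unadjusted p under 0.05, and their list mean was 5.63 to 5.85 in A-CRF and 5.58 to 5.74 in Control. Of these 8 markers 3 had a positive change, and their median log2 fold change was -0.0099. The bone gene Ibsp had the largest difference in that list, at 0.57 (limma, adjusted p = 0.13). On Control arrays, 3 of the 8 markers averaged more than 1 log2 unit over the table's lowest value. The part of such cells in the Comp values was not tested.

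Thbs2 encodes thrombospondin 2, which restrains angiogenesis and takes part in collagen fibril formation. Its values were 6.22 to 6.76 in A-CRF, with a median of 6.32, and 5.96 to 6.21 in Control, with a median of 6.13. Every A-CRF array was above every Control array, by a margin of 0.015 log2 units between the lowest A-CRF and the highest Control array. As said for Sparc, 1.46% of all genes had this pattern. The difference of 0.28 ± 0.07 log2 units (SE, limma, adjusted p = 0.067) did not pass over all probe sets. It passed without A-CRF 1 (adjusted p = 0.041), without A-CRF 4 (0.039) and without the 3 arrays of high GAPDH difference (0.027). The Control mean was 1.29 log2 units above the lowest value in the table.

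Tnc, Ccn2 and Tgfbi gave no difference beyond the spread between arrays. Ccn2 encodes connective tissue growth factor, a matricellular protein and a familiar target of TGF-beta and of the TEAD partner YAP. It was at 12.02 to 12.39 in A-CRF, with a median of 12.15, and 12.01 to 12.37 in Control, with a median of 12.17. The change was 0.03 ± 0.07 log2 units (SE, limma, adjusted p = 0.91), with a 95% interval of -0.11 to 0.18. The A-CRF mean lay 0.44 log2 units below the highest value in the table.

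Tgfbi, whose protein shares the fasciclin-type domains of periostin, was at 7.26 to 7.76 in A-CRF, with a median of 7.60, and 7.44 to 7.81 in Control, with a median of 7.60. Its change was -0.02 ± 0.08 log2 units (SE, limma, adjusted p = 0.97), with a 95% interval of -0.19 to 0.15. The intervals of Ccn2 and Tgfbi, like that of Tnc given next, lie below the lower bound for Postn of 0.44. Differences between genes in their changes were not tested. Tnc encodes tenascin-C, which loosens cell adhesion to fibronectin. It had values of 5.62 to 6.18 in A-CRF, with a median of 5.89, and 5.48 to 6.35 in Control, with a median of 5.71. Its change was 0.11 ± 0.12 (SE, limma, adjusted p = 0.80), with a 95% interval of -0.15 to 0.36. Its Control mean was 0.97 log2 units above the lowest value in the table. Control 3 held the highest Tnc value of all 14 arrays, and without it the change was 0.22 (adjusted p = 0.29).

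The members differed in which array was highest. A-CRF 3 had 7 of 9 members above every Control array, A-CRF 4 and A-CRF 5 had 6 and A-CRF 7 had 2. A-CRF 2, A-CRF 6 and A-CRF 8 had 5, and A-CRF 1 had 4. Control 3 itself had 5 of 9 members above every other Control array. The share of all genes above every Control array was not counted for single arrays. Averaged over the 9 genes, the deviation from the Control mean was largest on A-CRF 3, at 0.82 log2 units, and smallest among A-CRF arrays on A-CRF 7, at 0.19. Postn, Spp1, Fn1, Comp and Ccn2 were each highest in A-CRF on A-CRF 3, but Sparc, Thbs2 and Tnc on A-CRF 4 and Tgfbi on A-CRF 7. Among Control arrays, Control 3 was the highest for Postn, Tnc, Thbs2, Ccn2 and Comp, and the lowest for Sparc and Spp1.

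**Figure D3:**
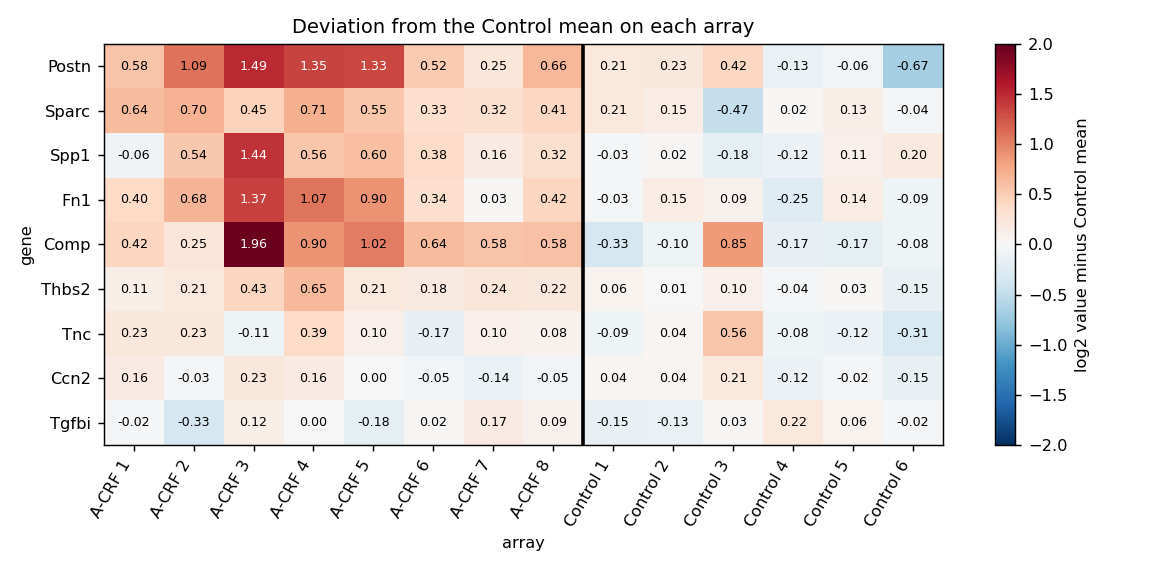
Log2 value minus the Control mean of each gene (rows) on each array (columns, A-CRF left of the line, Control right of it), with red above and blue below the Control mean. Comp on A-CRF 3 has the largest deviation, at 1.96, and Control 3 is high for Comp (0.85) and Tnc (0.56) but low for Sparc (-0.47).

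Within A-CRF, Postn and Fn1 followed each other closely. Ordered by Postn or by Fn1, the 8 A-CRF arrays fell in the same order, from A-CRF 7, 6, 1 and 8 at the low end to A-CRF 2, 5, 4 and 3 at the high end. A-CRF 6, 7 and 8 also differed from A-CRF 2, 3, 4 and 5 in a score of clock genes, given below. Pearson's r was 0.970 (exact permutation p = 2.5e-05, the smallest these arrays allow, adjusted p = 8.9e-04 over 36 pairs of members, n = 8). Spearman's rho was 1.0 (exact permutation p = 5.0e-05, adjusted p = 0.0018), and r was 0.976 without A-CRF 7 and A-CRF 3, the arrays farthest from the Postn median. In Control the same pair had r = 0.491 and rho = 0.657 (n = 6, exact permutation p = 0.33 and p = 0.18, adjusted p = 0.58 and p = 0.70), and r = 0.484 without Control 6 and Control 3. The difference between the groups in r was not tested. This was 1 of 36 pairs to pass in A-CRF, where 29 had a positive r, and 0 of 36 passed in Control, where 19 had a positive r. In Control even Postn and Ccn2, in the same order on all 6 arrays, did not pass (rho = 1.0, exact permutation p = 0.0028, adjusted p = 0.10). With so few arrays a pair could hardly pass there, so the counts of the groups cannot be compared. Spp1 and Fn1 did not pass in A-CRF (r = 0.847, rho = 0.857, exact permutation p = 0.0046 and p = 0.011, adjusted p = 0.078 and p = 0.077, n = 8, r = 0.936 without A-CRF 3 and A-CRF 1).

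**Figure D4:**
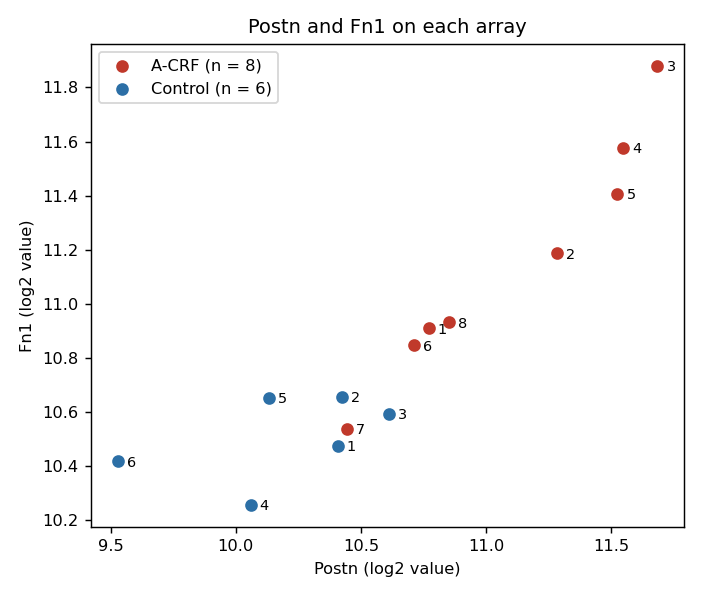
Postn (horizontal axis) against Fn1 (vertical axis), both as log2 values, on each A-CRF array (red) and Control array (blue), numbered as in the text. The A-CRF arrays lie along 1 rising line with A-CRF 7 at its foot among the Control arrays, and the Control arrays scatter around it.

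Genes whose deviations from the group means were most like those of each member were sought among 9293 named genes whose mean exceeded the median probe set, by Pearson's r over the 14 arrays, as a description. For Postn these were the kinase gene Dyrk2 (r = 0.875) and Plod2 (r = 0.858), a lysyl hydroxylase that prepares collagen for cross-linking. Plod2 itself rose by 0.43 ± 0.07 log2 units (SE, limma, adjusted p = 0.011). For Fn1 they were the complement protease gene C1r (r = 0.891) and the cadherin Cdh13 (r = 0.887), and for Spp1 the spectrin Sptbn1 (r = 0.903) and the cytokine co-receptor Il6st (r = 0.885).

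For Comp they were Smoc2 (r = 0.941), itself a matricellular protein related to Sparc, and the surface glycoprotein gene Cd200 (r = 0.940). Smoc2 was highest on A-CRF 3 in its group (9.03, next array 7.80) and on Control 3 in Control (8.91, next array 7.11), the same arrays as for Comp. Its difference between the groups did not pass (0.24 ± 0.35, SE, limma, adjusted p = 0.87). The genes most like Sparc were Stk11 (r = 0.904) and Ankrd53 (r = 0.895), like Thbs2 Kansl3 (r = 0.928) and Tmem119 (r = 0.921), and like Tnc Rbm14 (r = 0.919) and Hcfc2 (r = 0.919). Those most like Ccn2 were Otud7b (r = 0.886) and Zfp335 (r = 0.873), and those most like Tgfbi were Cracr2b (r = 0.848) and Cdpf1 (r = 0.843). Of these 18 genes Plod2 rose, Otud7b fell by 0.10 ± 0.02 log2 units (SE, limma, adjusted p = 0.043) and the other 16 did not pass. Each r was picked as among the highest of all genes searched, which by itself raises it. What the search alone would give was not tested.

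Of 39 other matricellular and adhesive glycoproteins measured, 1 rose, 1 fell and 37 did not pass, where 2.99% of all genes passed. An unadjusted p under 0.05 was reached by 15 of them, and by 18.6% of all genes. Their median log2 fold change was 0.08. The thrombospondins Thbs3 (log2 fold change 0.13, limma, adjusted p = 0.63) and Thbs4 (0.07, adjusted p = 0.93) were among those that did not pass. Fstl1, a secreted relative of Sparc, rose by 0.20 ± 0.05 log2 units (SE, limma, adjusted p = 0.040), at 11.10 to 11.33 in A-CRF and 10.84 to 11.11 in Control. Fgl2, a fibrinogen-like protein, fell by 0.75 ± 0.12 (SE, limma, adjusted p = 0.0078), at 8.97 to 9.93 in A-CRF and 9.92 to 10.23 in Control. The mineral-associated gene Ibsp, a relative of Spp1 on the marker list of bone and cartilage, was at 6.38 to 7.60 in A-CRF and 6.03 to 6.50 in Control (0.57 ± 0.18, SE, limma, adjusted p = 0.13).

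Of 19 measured genes for receptors of these proteins or of collagen, 0 rose and 1 fell by limma. An unadjusted p under 0.05 was reached by 7 of them, and by 18.6% of all genes. The gene that fell was Ddr2, a collagen receptor kinase, with a mean of 7.94 ± 0.13 on A-CRF arrays (SD, n = 8) and 8.21 ± 0.12 on Control arrays (SD, n = 6). Its change was -0.27 ± 0.07 log2 units (SE, limma, adjusted p = 0.045). The median log2 fold change of the receptors was 0.09. Among all 14217 genes 1.93% rose, 1.06% fell and 6935 had a positive change. Of 21 measured genes of TGF-beta and YAP regulation, 3 rose and 0 fell, with a median of 0.03. They were the latent TGF-beta binding proteins Ltbp2 (1.09 ± 0.21, SE, limma, adjusted p = 0.020) and Ltbp1 (0.38 ± 0.09, adjusted p = 0.046) and the microfibril gene Fbn1 (0.53 ± 0.08, adjusted p = 0.0078). Of 13 genes of partner collagens, cross-linking enzymes and small proteoglycans, 3 rose, 0 fell and all 13 had a positive change, with a median of 0.32. Besides Plod2 these were Lox, the lysyl oxidase that periostin helps to activate, at 10.39 to 11.05 in A-CRF and 9.54 to 10.41 in Control (0.74 ± 0.14, SE, limma, adjusted p = 0.020), and Col5a2 (0.59 ± 0.12, SE, limma, adjusted p = 0.026).

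Marker lists of other cell types gave these values beside the members, where 1.93% of all genes were higher and 1.06% lower. The 10 smooth muscle markers had a median log2 fold change of -0.25, with Actg2 (-0.82 ± 0.17, SE, limma, adjusted p = 0.028) and Myh11 (-0.29 ± 0.07, adjusted p = 0.043) lower and 0 higher. The 7 skeletal muscle markers measured had a median of -0.0042, with 3 positive and 2 at an unadjusted p under 0.05. In that list Ckm was lower (-0.41 ± 0.08, SE, limma, adjusted p = 0.023) and the other 6 of 7 did not pass. One of those 6, Acta1, had a change of 0.43 (limma, adjusted p = 0.30). None passed by limma among endothelial (9 measured, 1 with an unadjusted p under 0.05, median -0.04), fibroblast (8, 2, 0.04), white adipocyte (9, 0, -0.21), platelet (6, 2, 0.0001), T cell (7, 0, -0.0077), mesothelium (6, 0, 0.03) or erythroid markers (4, 2, -0.04). The fibroblast list mean was 8.13 to 8.47 in A-CRF and 8.22 to 8.35 in Control. The macrophage list thus had the largest median of these lists, at 0.42, and its part in the members' values was not tested.

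A score of clock genes, the mean of 7 day-phase output genes minus that of 3 genes of the opposite phase, was 0.94 to 1.08 on A-CRF 6, 7 and 8. It was -0.69 to -0.24 on A-CRF 1 to 5 and 0.06 to 1.24 on Control arrays. A-CRF 6, 7 and 8, with A-CRF 1, were also the A-CRF arrays lowest in Postn and Fn1. Whether the correlation of Postn with Fn1 within A-CRF holds apart from this score was not tested. Each of A-CRF 1 to 5 thus scored below every Control array, so score and group cannot be fully told apart. With this score as a covariate 0 of 9 members passed by limma, as did 0.374% of all probe sets. The changes were then 0.69 for Postn (adjusted p = 0.24), 0.39 for Sparc (0.11), 0.44 for Fn1 (0.32), 0.74 for Comp (0.33), 0.36 for Spp1 (0.50) and 0.25 for Thbs2 (0.26). Each kept its direction.

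**Figure D5:**
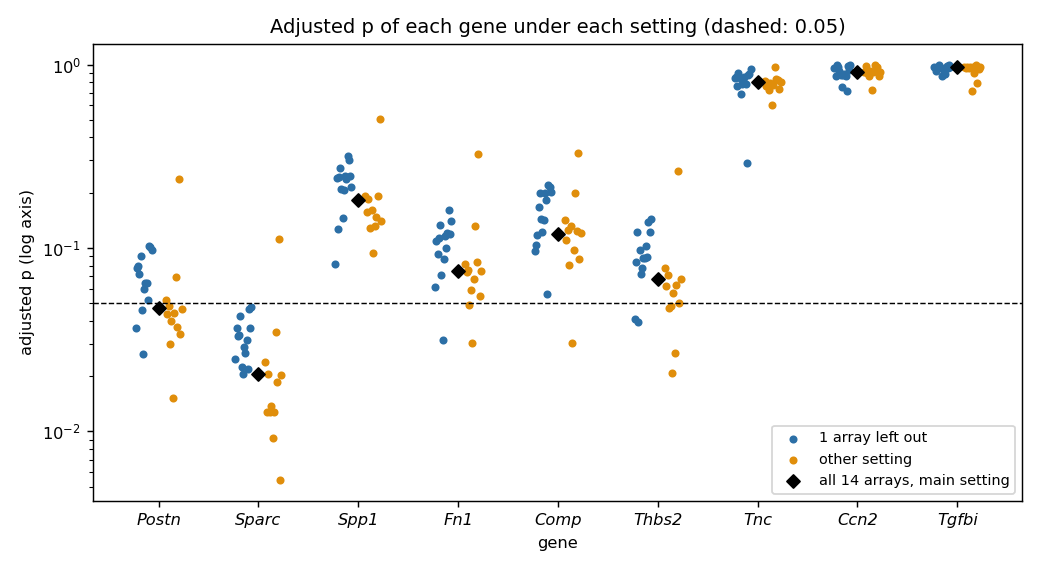
Adjusted p on a log axis (vertical) for each of 9 genes, with all 14 arrays (black diamonds), with 1 array left out (blue) and under other settings (orange), and with the threshold of 0.05 dashed. Sparc is above the line only with the clock gene covariate (0.11), Postn lies on both sides of it, and Tnc, Ccn2 and Tgfbi stay above 0.29.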

How the data were processed

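Total RNA of thoracic aortas was labelled by oligo-dT primed transcription with biotin and hybridised to 1-colour Affymetrix rat arrays, per the labels' protocols. The deposited values are 1 log2 number per probe set and array, made with PLIER per the submitters' processing notes. The sources used here name neither the normalization between arrays nor any offset, and the log2 base was inferred from the range. Of 31099 probe sets, 57 manufacturer controls were left out. The annotation gave 1 symbol for 20826 of the 31042 tested, several for 436 and none for 9780, and names no genome build.

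The groups were compared with limma 3.58.1 (R 4.3.3; lmFit, eBayes, group as the only factor, two-sided), with Benjamini-Hochberg adjustment over all 31042 probe sets and a threshold of 0.05. The 636 calls (391 higher, 245 lower) are 2.05% of them. The fit had 12 residual degrees of freedom. Arrays have no sequencing depth, and their number limits the precision. Exact permutation tests used scipy 1.17.1 and numpy 2.4.6. The fit was tested on simulated data with independent noise for each probe set and array. Those data hold no array differences shared by many probe sets, so the test does not cover how calls depend on single arrays.

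The members, lists and alternatives were chosen with earlier results of these data known. Besides the members, up to 4 genes past the threshold with the largest change were named from each list, or 2 where none passed, and 2 like genes per member; of the 2 named from lists with none past the threshold, only those that bear on a member are printed. The alternatives were median centring, quantile normalization, an offset of 16, dropping the dimmest probe sets (below percentile 40 of the mean), trend and robust eBayes, array weights, covariates, other probe set choices, an exact permutation test, and leaving out arrays. Protein sequences were not used here.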

Additional observations from a re-analysis of the deposited data

Results flagged for a closer look

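Of 20 sets of arrays tested, 1 per probe set of a member and group, 4 held an array whose gap to its neighbour was large against the range of its group, where chance gives about 1 in 20. The sets reuse the same 14 arrays and are not independent, so whether 4 is more than chance gives was not tested. Comp on A-CRF 3, at 8.11, lay above the next A-CRF array at 7.17, and Spp1 on A-CRF 3, at 12.10, above the next at 11.25. Comp on Control 3, at 7.01, lay above the next Control array at 6.07. Sparc on Control 3, at 11.38 by the probe set that stands for the gene, lay below the next at 11.81. Its gap was 0.630 of the range, just over the bound of 0.625. All 4 fall on A-CRF 3 or Control 3, whose GAPDH differences of 0.46 and 0.50 were among the low ones. The cause was not tested.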

How the results depend on the processing

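Probe sets past the threshold numbered 636 with all arrays, 1457 with array weights, 1041 with the GAPDH covariate, 116 with the clock gene covariate, and 307 to 979 when 1 array was left out (979 without A-CRF 1, 307 without Control 5). Members past the threshold numbered 2 with all arrays, 1 with an offset of 16, 4 with dim probe sets left out, 5 with array weights, 0 with the clock gene covariate, and 1 to 3 when 1 array was left out. Sparc was lost only with the clock gene covariate. Postn was lost in 11 fits without 1 array and, among 12 other settings, with the offset (adjusted p = 0.052), without A-CRF 1, A-CRF 4 and Control 1 (0.070) and with the clock gene covariate (0.24). Thbs2 passed in 2 fits without 1 array and in 5 of 12 other settings, Fn1 in 1 and 2, Comp in 0 and 1, and Spp1, Tnc, Ccn2 and Tgfbi in none. Exact permutation tests on single genes gave p = 0.0023 for Postn, 0.0013 for Thbs2, 0.0057 for Fn1, 0.0090 for Comp and 0.012 for Spp1, unadjusted over all genes. Some uncalled members turned direction: Ccn2 with the clock gene covariate (log2 fold change -0.013), and Tgfbi with that covariate (0.068) and without A-CRF 2, A-CRF 5 or Control 4 (range over the fits without 1 array -0.048 to 0.027). Spp1 had no value without probe sets of several transcripts, since its probe set is one of these. Low signal limits Tnc, whose Control mean was 0.97 log2 units over the lowest value. The Control means of Thbs2 and Comp were 1.29 and 1.33 over it, and Sparc and Ccn2 lay near the highest value. No paired analysis was possible because the sample titles of the groups share no numbers. The array numbers used here count within each group and do not pair arrays. The causes of these shifts were not tested.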
